A study of Mus musculus with 3 samples.

Results

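The genes described here are the integrin activators kindlin-3 (Fermt3) and talin-1 (Tln1), 5 integrin chains of leukocytes (Itgal, Itga4, Itgb1, Itgb2 and Itgb7) and 3 intercellular adhesion molecules, or ICAMs (Icam1, Icam2 and Icam4). Every probe set whose only gene symbol was 1 of these 10 genes was taken. This gave 25 of the 45101 probe sets on the array and 10 of the 18194 genes with such a probe set. The genes were chosen by function with MAS5 signals of these same arrays known, above all the ratios of Fermt3 and Icam4 to parental cells, so their values are a description and were put to no test.

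WR19L is a mouse T-lymphoma cell line from the BALB/c strain, grown here without any treatment. The first of 3 arrays held parental WR19L cells, which the labels also call W3. On the second were DKO cells, WR19L cells that lack flippase activity, with stable expression of human ATP11A, and on the third DKO cells with stable expression of its Q84E mutant. ATP11A is a flippase, a membrane pump that carries phospholipids such as phosphatidylserine to the cytoplasmic side of the cell membrane. Both DKO lines share the knockout background and carry an ATP11A transgene, and parental cells have neither. The flippase activity of each line with its transgene is not given by these arrays. DKO cells without a transgene were not analysed here, so in a ratio to parental cells the knockout, the transgene and the derivation of the line cannot be told apart. The genes knocked out in DKO cells and the promoter of the transgene are not stated in the labels. With 1 array per group there was no replicate, SD or test between groups, and in RNA from a whole culture fewer expressing cells and less RNA per cell cannot be told apart.

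The deposited values are MAS5 signals, a linear intensity for each probe set. Where 3 signals are given together, they are those of parental, wild-type ATP11A and Q84E ATP11A cells, in this order. A signal under the median of its own array, which was 50.3, 50.5 and 55.5, was treated as under the floor, and a ratio against it as a bound. Probe sets of 1 gene should give like ratios, so the SD of the gap between 2 of them, reduced to a single probe set, was taken as the error of a log2 ratio. This probe set error was 0.32 to 0.36 for dim signals from the 50th to the 75th percentile, 0.18 to 0.19 up to the 90th and 0.10 to 0.11 for brighter ones, and it does not cover differences between cultures. The brighter Atp11a probe set, which need not detect a human transgene, gave signals of 478, 253 and 244. Its log2 ratios to parental cells were -0.92 and -0.97. The dimmer Atp11a probe set gave 131, 16.3 and 31.7, with only the parental signal above the floor. For it the log2 ratios to parental cells are thus bounds, -1.38 for wild-type ATP11A and -1.24 for Q84E ATP11A cells. Of 11 T lineage markers with a named probe set, 9 were above the floor on every array. The single probe sets of Cd3e and Cd5 were under it on all 3.

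Integrins are pairs of an alpha and a beta chain that let a lymphocyte hold on to other cells and to matrix. On a resting cell they are folded in a low-affinity form. Signals from the T cell receptor or a chemokine receptor act through the small GTPase Rap1 to bring talin-1 and kindlin-3 to the tail of the beta chain, and both are needed for the high-affinity form. Kindlin-3 is the kindlin of blood cells, and its loss in people causes a leukocyte adhesion deficiency. The pair of the alpha L chain (Itgal) and the beta 2 chain (Itgb2) is LFA-1, which binds ICAMs on other cells. The alpha 4 chain (Itga4) pairs with the beta 1 chain (Itgb1) or the beta 7 chain (Itgb7) and binds ligands of the vessel wall.

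Fermt3 had higher signals in both DKO lines than in parental cells. Its brightest probe set, 1456014_s_at, gave 969 in parental cells, 3309.8 in wild-type ATP11A cells and 4596 in Q84E ATP11A cells. The level was 3.42-fold higher in wild-type ATP11A cells and 4.74-fold higher in Q84E ATP11A cells than in parental cells, and the log2 ratios were 1.77 and 2.25 against a probe set error of 0.10 and 0.11. Among the 11596 genes compared, these ratios were the 12th and the 9th from the top. Between the DKO lines the log2 ratio of Q84E over wild-type ATP11A was 0.47, or 1.39-fold.

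Of the 4 Fermt3 probe sets, 3 were past 2-fold in both comparisons with parental cells. Probe set 1433963_a_at had the same order of arrays, with signals of 249.9, 946 and 1438. Probe set 1433964_s_at gave 184, 737 and 1098, and both are annotated to the same source sequence, so they are not independent. The names of all 3 mark kinds that can match several transcripts. Such probe sets, with names that end in _a_at, _s_at or _x_at, are called less specific here. The remaining probe set, 1443641_at, is of the kind designed for 1 transcript and was dim, at 82.3, 97.0 and 141. Its log2 ratios to parental cells were 0.24 and 0.78, which were under 2-fold. For Q84E over wild-type ATP11A the 4 probe sets lay close together, at log2 ratios of 0.47 to 0.60.

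The 250 bases before the annotated start of Fermt3 are shown because this gene had the highest ratio of the 10 to parental cells. They lie at chr19:7019470-7019719 on the minus strand of GRCm38.p6 and come from RefSeq, written 5′ to 3′ along the gene, with capitals for matches to the motifs searched.
Fermt3 upstream: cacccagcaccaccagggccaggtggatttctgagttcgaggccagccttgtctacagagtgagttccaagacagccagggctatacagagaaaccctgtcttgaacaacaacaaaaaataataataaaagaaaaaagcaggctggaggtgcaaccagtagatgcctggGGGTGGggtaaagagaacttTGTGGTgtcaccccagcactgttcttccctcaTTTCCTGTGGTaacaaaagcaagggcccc
A total of 8 motifs were searched on both strands. For ETS factors these were GAGGAA and a variant, AGGAAA, for RUNX factors TGTGGT and for GATA factors AGATAA. For the GC box the letters were GGGCGG, for KLF factors CCACCC, for the E-box CACGTG and for the TATA box TATAAA. The RUNX letters TGTGGT matched 2 times, starting 61 and 24 bases before the start of the gene, and 14% of all 32851 upstream windows of this length hold them. The ETS letters AGGAAA matched on the opposite strand from 29 to 24 bases before the start, sharing 1 base with the nearer RUNX match, and are in 25.4% of windows. The KLF letters CCACCC matched on the opposite strand and are in 28.1% of windows. The other 5 motifs were not found in this window, and a match is only a description of the letters.

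**Figure D1:**
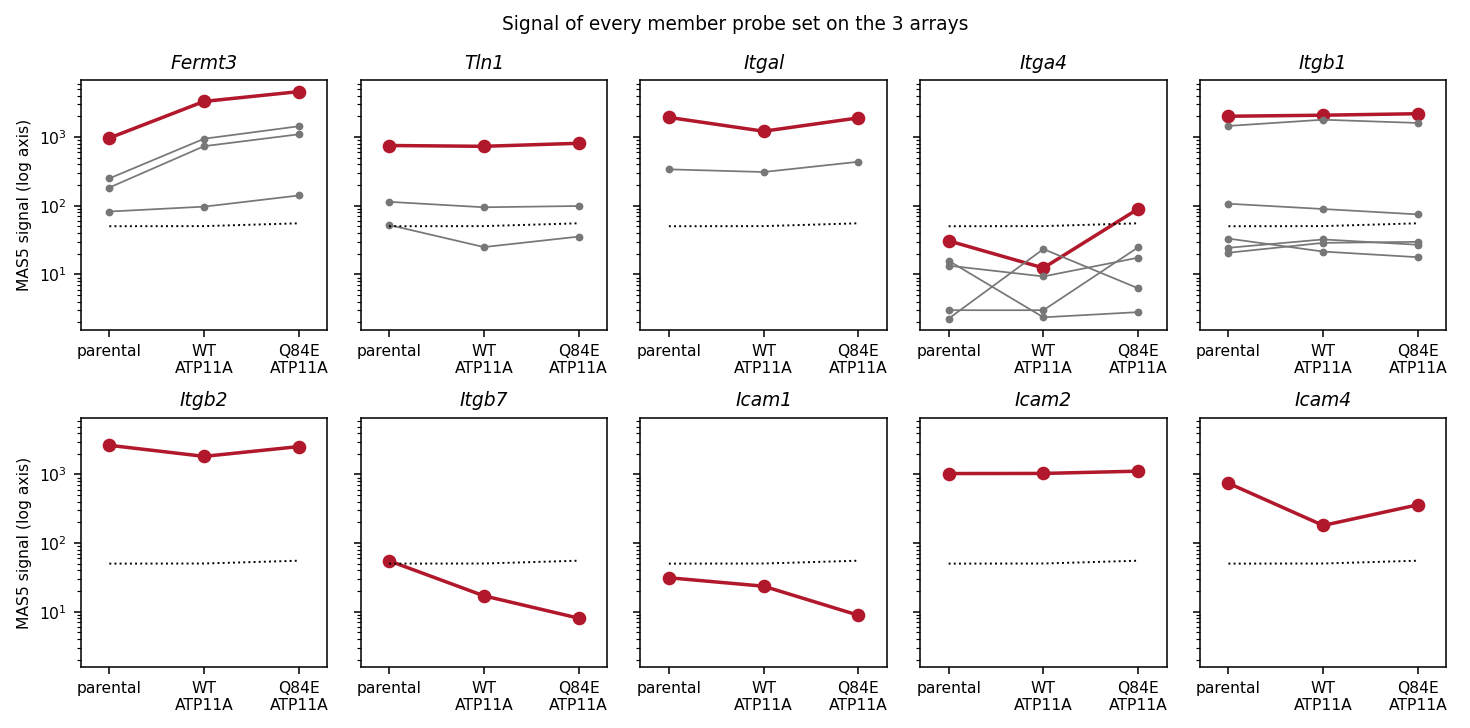
Each panel plots the MAS5 signal (log axis) of every probe set of 1 gene on the 3 arrays, with 1 array per group. Red marks the probe set with the highest mean, grey the others, and the dotted line the floor of each array. Fermt3 lies at 969 in parental and 4596 in Q84E ATP11A cells by its brightest probe set, Icam4 is lowest at 181 in wild-type ATP11A cells, and Icam1 lies under the floor on all 3 arrays.

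Tln1, whose product links integrin tails to actin and works beside kindlin-3, had signals of 754, 734 and 812. The log2 ratios to parental cells were -0.040 and 0.11, inside the error of 0.18 and 0.19 for that level. The mean of all its probe sets gave -0.46 and -0.22, but it takes in signals of the third probe set that were under the floor. A second Tln1 probe set gave 114, 95.0 and 99.1. The third was just above the floor at 52.5 in parental cells and under it in both DKO lines.

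Both chains of LFA-1 had their lowest signal on the wild-type ATP11A array. Itgal gave 1935, 1217 and 1904 by its brightest probe set. Its log2 ratio was -0.67 for wild-type ATP11A over parental and 0.65 for Q84E over wild-type ATP11A, against an error of 0.18 in both. Its other probe set gave 339, 309.9 and 437, with log2 ratios of -0.13 for wild-type ATP11A over parental, 0.36 for Q84E ATP11A over parental and 0.49 for Q84E over wild-type ATP11A. Itgb2, which has 1 probe set, gave 2662, 1836 and 2549.6, with log2 ratios of -0.54 and 0.47 against an error of 0.10. For Q84E ATP11A over parental cells the brightest Itgal probe set was at -0.023 and Itgb2 at -0.062, both inside the error. There the mean of both Itgal probe sets gave 0.17, and with a common median Itgb2 was at -0.20.

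A level at least 1.3-fold lower in wild-type ATP11A cells than in both others, a limit chosen after these values were seen, was found for Itgal, Itgb2 and Icam4. That is 3 of the 9 members compared, and 3.01% of all 11596 genes met it. Among genes past the 75th percentile, 3 of 7 members and 1.03% of all genes met it. Itgal met it by its brightest probe set and not by the other. When each array was divided by its median signal, Itgb2 no longer met it. Among the T lineage markers Cd3d and Cd2 met it, 2 of 9 compared. Of those 9, 8 were lower in wild-type ATP11A than in parental cells, Zap70 and Ptprc by little, at -0.079 and -0.12. The median log2 ratio of the 9 was -0.42, beside 0.0057 for all genes, of which 54.2% were above 0. The summed signal over 11 marker genes was 43143, 34996 and 41089, of which Ptprc alone gave 22592, 20742 and 21642. The part of this shift of the T lineage markers in the LFA-1 values was not tested.

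The partners of the other lymphocyte integrins differed in whether they were measured at all. Itgb1 had its brightest probe set at 2012, 2084 and 2189.9, with log2 ratios to parental cells of 0.051 and 0.12. The next probe set gave 1455, 1791 and 1606. A dimmer one ran the other way, at 107, 89.6 and 74.8, and 3 of the 6 Itgb1 probe sets were under the floor on every array. Itga4 was under the floor on every array by 4 of its 5 probe sets. Its remaining probe set gave 30.8 in parental and 12.4 in wild-type ATP11A cells, both under the floor, and 90.0 in Q84E ATP11A cells. On that probe set Q84E ATP11A cells were at least 1.79-fold above parental and at least 1.78-fold above wild-type ATP11A cells. Itgb7 gave 55.3 in parental cells, barely above the floor, and 17.1 and 8.08 in the DKO lines. For Itgb7 these signals give only a bound of at least 1.09-fold for parental over wild-type ATP11A cells, and no fold against Q84E ATP11A cells, whose floor lies above 55.3.

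Icam4 encodes a small ICAM that is known from red cells, where it carries a blood group, and that binds leukocyte integrins. Its only probe set, 1422930_at, gave 745 in parental cells, 181 in wild-type ATP11A cells and 362 in Q84E ATP11A cells. The signal was highest in parental and lowest in wild-type ATP11A cells, with Q84E ATP11A cells between them. It was 4.12-fold lower in wild-type ATP11A and 2.06-fold lower in Q84E ATP11A than in parental cells, with log2 ratios of -2.04 and -1.04 against an error of 0.34 and 0.36. They were the 12th and the 84th from the bottom of the genes compared. The Q84E ATP11A value fell short of 2-fold when 50 was added to each signal, at -0.95. Between the DKO lines Q84E ATP11A cells were 1.9994-fold above wild-type ATP11A cells, a log2 ratio just under the limit of 1.

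The bases upstream of Icam4 are shown because it had the lowest ratio of the 10 genes to parental cells. The 250 bases lie at chr9:21029182-21029431 on the plus strand of GRCm38.p6, from RefSeq, with capitals as above.
Icam4 upstream: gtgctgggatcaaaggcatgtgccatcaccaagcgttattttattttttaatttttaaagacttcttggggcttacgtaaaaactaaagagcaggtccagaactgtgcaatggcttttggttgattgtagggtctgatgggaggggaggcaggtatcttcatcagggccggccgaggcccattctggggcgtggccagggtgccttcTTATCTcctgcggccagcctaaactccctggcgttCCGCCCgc
The GATA letters AGATAA matched on the opposite strand from 43 to 38 bases before the start and are in 9.99% of windows. The GC box GGGCGG matched on the opposite strand from 8 to 3 bases before it and is in 32.7% of windows. The other 6 motifs were not found here.

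Icam2, a ligand of LFA-1 carried by lymphocytes, platelets and endothelium, had nearly the same signal on all arrays. It gave 1032 in parental, 1036 in wild-type ATP11A and 1118 in Q84E ATP11A cells, and the log2 ratios to parental cells of 0.0047 and 0.12 lay inside the error of 0.18 and 0.19. Icam1, the ICAM that inflammatory signals induce on many cell types, was under the floor throughout. Its probe set gave 31.3, 23.6 and 8.90, so it was the 1 member of 10 that was not compared.

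Over the members, 2 of the 9 compared were past 2-fold in wild-type ATP11A over parental cells, as were 1.45% of all genes compared. They were Fermt3, on the higher side, where 0.561% of all genes lay, and Icam4, on the lower side, with 0.888%. The same 2 genes were past it in Q84E ATP11A over parental cells, where 2.42% of all genes were, 1.63% higher and 0.793% lower. In both DKO lines at once 0.285% of all genes were at least 2-fold higher than in parental cells and 0.457% lower. These ratios share the parental array, and both genes were listed with them known, so nothing is read from the counts. For Q84E over wild-type ATP11A no member was past 2-fold, against 1.35% of all genes, 1.03% higher and 0.319% lower. There 7 of the 7 members above the floor on all arrays had a log2 ratio above 0, with a median of 0.47. This count was 6 of 7 with the mean of all probe sets and 6 of 7 without the less specific ones. For all genes the median was 0.046 and the share above 0 was 58.1%. All genes here include those under the floor on both arrays, whose ratio is set by the floors alone. Among genes past the 75th percentile the median was 0.0096 and the share 52.4%. Of the T lineage markers 9 of 9 were above 0, with a median of 0.36. With a common median, 5 of the 7 members, 6 of the 9 markers and 33.2% of all genes were above 0, and Icam2 and Itgb1 were below it. Under that scaling a gene under the floor on both arrays has a ratio of 0 and counts as not above it. The 33.2% is therefore not a like share for measured genes. The same holds for the 47.9% after quantile normalization, where 7 of 7 members and 9 of 9 markers were above 0. The excess of higher genes depended on scaling. For Q84E ATP11A over parental the split was 189 higher and 92 lower as deposited, 119 and 118 after quantile normalization and 111 and 123 with a common median. For Q84E over wild-type ATP11A it was 119 and 37, 68 and 64, and 65 and 66.

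**Figure D2:**
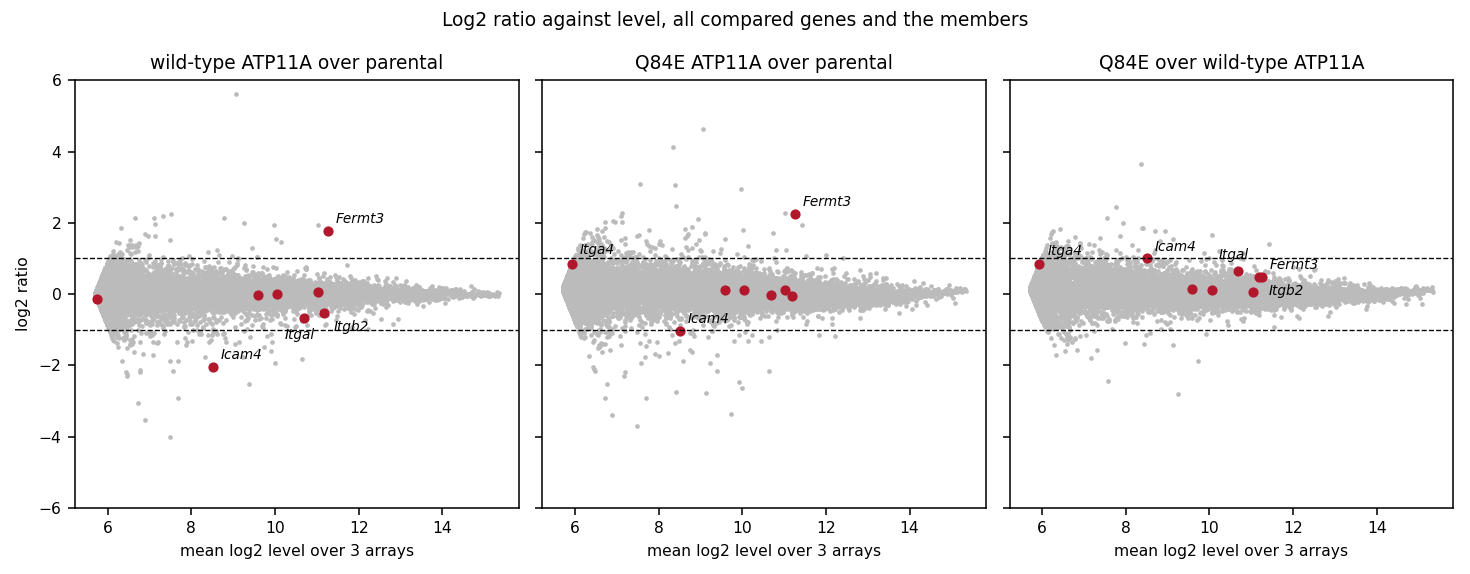
Each panel plots the log2 ratio of 1 comparison against the mean log2 level over the 3 arrays, in grey for the 11596 genes compared and in red for the members with a ratio. Dashed lines mark 2-fold. Fermt3 stands at 1.77 and 2.25 above parental cells, Icam4 at -2.04 and -1.04, and Icam4 touches the upper line for Q84E over wild-type ATP11A.

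The rest of the integrin machinery was read from lists of related genes. Among the other kindlins, talin-2 and the Rap1 pathway, which carry the signal from receptors to integrins, 16 of 18 genes with a probe set were compared, and by the brightest probe set of each, none was past 2-fold in any of the 3 comparisons. Their median log2 ratio was 0.00066 for wild-type ATP11A over parental, 0.078 for Q84E ATP11A over parental and -0.014 for Q84E over wild-type ATP11A, beside 0.0057, 0.068 and 0.046 for all genes. Of the 10 compared among the other integrin chains, the 11 inhibitors of integrin activation, the 15 genes of actin linkage and adhesion signalling and the 6 other ligands, 0 were past 2-fold in any comparison, again by their brightest probe sets. Of the 109 probe sets of these 58 genes that were above the floor on at least 1 array, 2 were past 2-fold, neither the brightest of its gene. Over all genes compared, 1.45%, 2.42% and 1.35% were past 2-fold in the 3 comparisons, so nothing is read from these low counts. The share over all probe sets is not given here. A probe set of Ptk2b, which encodes a focal adhesion kinase relative, gave 79.2, 81.1 and 163, with log2 ratios of 1.04 for Q84E ATP11A over parental and 1.01 for Q84E over wild-type ATP11A, where its brighter probe set had 0.71 and 0.55. A probe set of Rasgrp2, an activator of Rap1, gave 1962, 1425 and 946, at -1.05 for Q84E ATP11A over parental. The inhibitors had medians of 0.00065, 0.23 and 0.11 in the same order. The actin linkage genes, such as those for vinculin and integrin-linked kinase, had medians of 0.062, 0.24 and 0.17. For Q84E over wild-type ATP11A 12 of the 15 were above 0, or 8 of 15 with a common median, beside the 58.1% and 33.2% of all genes. These 15 were all above the floor on both arrays, whereas the shares of all genes include genes under it on both. Among the T lineage markers 1 of 9 was past 2-fold, the costimulatory receptor gene Cd28, at 112, 115 and 227, in Q84E ATP11A over parental cells, where 2.42% of all genes were. Its log2 ratio there was 1.02, its other probe set, at 84.7, 80.8 and 97.3, had 0.20, and with a common median no T lineage marker was past 2-fold.

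**Figure D3:**
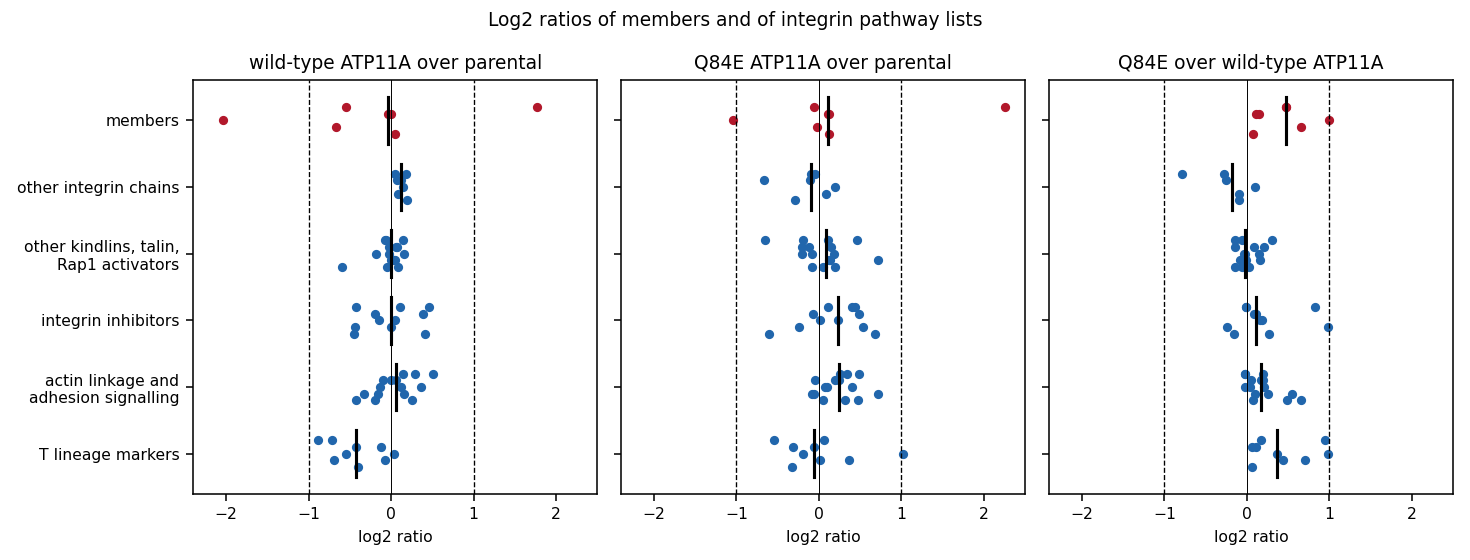
Points are log2 ratios of single genes above the floor on both arrays of a comparison, by list, and black bars are list medians. Dashed lines mark 2-fold. The members spread from -2.04 to 1.77 for wild-type ATP11A over parental cells, and the points of the integrin lists lie inside the dashed lines in all 3 panels.

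Markers of 6 other cell types were low. Of 25 such genes with a named probe set, 9 were above the floor on each array and 0 reached the 75th percentile on any. The brightest was Pecam1, an adhesion molecule of endothelium and leukocytes, at 267, 228 and 229. Icam4 is an erythroid gene in other settings. The erythroid markers had 2 of 4 genes above the floor on each array, Epor and Klf1. Epor gave 138, 112 and 107, with log2 ratios to parental cells of -0.31 and -0.36 against errors of 0.34 and 0.36. Klf1 gave 73.7, 73.5 and 76.1. The summed signal of 264, 205 and 202 includes Alas2 and Hba-a1, both under the floor on all arrays, with Hba-a1 at 49.1, 8.15 and 13.1.

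Genes with a pattern like that of Fermt3 or Icam4 were ranked by the distance between 3 log2 levels, each gene centred on its own mean. They were taken from 6888 other genes above the floor on all arrays and past the 75th percentile on at least 1. Nearest to Fermt3 was Acbd3, which encodes a Golgi scaffold protein, at 789, 3003 and 3803 and a distance of 0.12. Shisa5, Ccdc18, Ccdc112 and Dusp4 followed at 0.31 to 0.53. Nearest to Icam4 was Cpeb1, a regulator of mRNA translation, at 424, 94.7 and 164 and a distance of 0.23. P2ry10, Tox2, Fam163b and Ccr9, a chemokine receptor of thymocytes and gut-homing T cells, followed at 0.28 to 0.51. With 3 arrays such likeness rests on 3 values per gene.

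The genes beside Fermt3 and Icam4 on their chromosomes were compared as well, with the order from RefSeq. Fermt3 lies between Trpt1 and Stip1 among genes with a probe set. Trpt1 was under the floor on all arrays, and Stip1, a co-chaperone gene, gave 7043, 6828 and 6501. Dnajc4, Nudt22, Macrod1 and Flrt1 had log2 ratios to parental cells of -0.26 to 0.41, and none of the 5 measured neighbours was past 2-fold. Icam4 lies between Icam1 and Icam5. Icam5, the ICAM of neurons, was higher in both DKO lines than in parental cells, at 36.3, under the floor, in parental, 67.0 in wild-type ATP11A and 98.0 in Q84E ATP11A cells. Its level was thus at least 1.33-fold and 1.95-fold above parental. S1pr2, Mrpl4, Zglp1 and Raver1 had log2 ratios to parental cells of -0.12 to 0.45, again short of 2-fold.

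**Figure D4:**
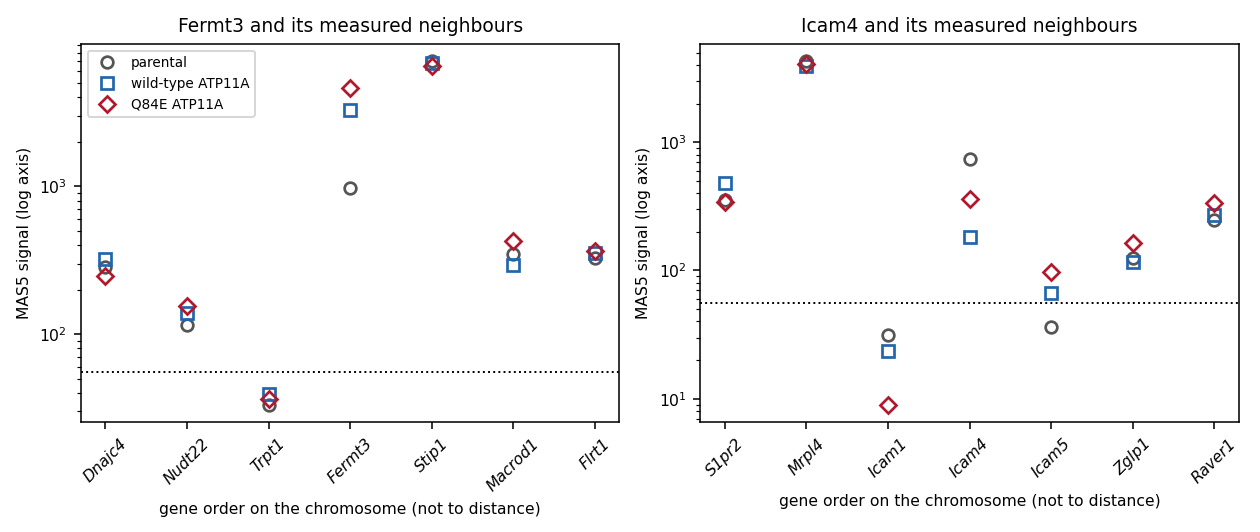
MAS5 signals (log axis) of Fermt3, Icam4 and the 3 nearest genes with a named probe set on each side, in chromosome order and not to distance. Symbols mark the 3 arrays, with 1 array per group, and the dotted line is the floor of the Q84E ATP11A array, 55.5. The 3 symbols are well apart for Fermt3 (969, 3309.8 and 4596) and Icam4 (745, 181 and 362).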

How the data were processed

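Per the submitters' processing notes, the authors computed MAS5 signals; the deposited values are intensity on a linear scale for 45101 probe sets, with a trimmed mean (2% left out at each end) of 500.0 on each array. The version of MAS5 is not stated, and detection calls were not used here. Per the labels' protocols, 250 ng of total RNA per sample was labelled with biotin by a 3' in vitro transcription kit. Gene names came from the platform's annotation, where 34958 probe sets had 1 symbol, 932 several and 9211 were not named here, and all 10 members were in RefSeq. For 7 of them an upstream sequence was found in the table used. Each gene took its probe set of highest mean log2 signal and was compared if it reached the 50th percentile on at least 1 array. Ratios are differences of log2 signals, with levels under the floor set to it. The error used probe set pairs within 1 log2 unit. Members and lists were chosen with earlier results of these data known. Genes were named as members, as list genes past 2-fold and the 75th percentile, as the 5 nearest in pattern and as the 3 neighbours on each side; others named were picked after their values were seen. The scripts, run in Python 3.11.15 with pandas 2.3.3 and numpy 2.4.6, were tested on simulated data. For each result 9 alternatives of scaling, probe set, floor, pseudocount and filter were tried.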

Additional observations from a re-analysis of the deposited data

How the results depend on the processing

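In 1 alternative the less specific probe sets were dropped by their names alone, among them 1433963_a_at of Fermt3 at 1.92 and 2.52. Without them, with only its dim probe set left, the log2 ratio of Fermt3 fell under 2-fold. It became 0.24 for wild-type ATP11A over parental and 0.78 for Q84E ATP11A over parental. With the mean of all its probe sets it was 1.48 and 2.03, and with a common median it was 2.10 for Q84E ATP11A over parental and 0.34 for Q84E over wild-type ATP11A. The common median lowered the median of all genes by 0.14 in both Q84E comparisons. The number of members past 2-fold was 2, 2 and 0 for wild-type ATP11A over parental, Q84E ATP11A over parental and Q84E over wild-type ATP11A. It became 1 in each comparison with parental cells without the less specific probe sets. It was 4, 4 and 2 with no floor and 4, 4 and 1 with a floor at the 25th percentile, where Itga4 and Itgb7 were added from signals under the floor used here. With 50 added to each signal and no floor it was 1 for Q84E ATP11A over parental, which was Fermt3. For Q84E over wild-type ATP11A it was then 1, which was Itga4, under the floor used here on the wild-type ATP11A array. Over all genes 168, 281 and 156 were past 2-fold, against 816, 962 and 801 with no floor, 788, 930 and 770 with a floor at the 25th percentile, and 58, 98 and 34 among genes past the 75th percentile. Of 157 values of the other members, 20 moved by more than the probe set error. They were of Itgal, Itgb1, Itgb2, Tln1, Itga4 and Itgb7. With the mean of all probe sets Itgal was at -0.40 instead of -0.67 for wild-type ATP11A over parental. Itgb1 for Q84E over wild-type ATP11A went from 0.071 to -0.066 with a common median and -0.14 with the mean of all probe sets. Itga4 there was at 2.86 with no floor, against a bound of 0.83. Of 300 values each for the lists, 115 medians and 31 counts past 2-fold moved. Integrin list genes past 2-fold by the gene's own value appeared with no floor, a floor at the 25th percentile or 50 added, and were Itga9, Itgb3, Fermt2, Fn1 and Icam5. No member ratio past 2-fold changed sign. Icam4 kept its sign under all 9 alternatives and rests on 1 probe set. No replicate could be left out with 1 array per group, and low signal limits Itga4, Itgb7 and Icam1.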

Other observations

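Genes in this paragraph were picked after their values were seen. Rasgrp2, an activator of Rap1 in lymphocytes and platelets, gave signals of 2484, 1650 and 1586 on the parental, wild-type ATP11A and Q84E ATP11A arrays by its brightest probe set, with log2 ratios to parental cells of -0.59 and -0.65. Other probe sets gave 2412, 1560 and 1691, and 1962, 1425 and 946, and the dimmest, at 125, 122 and 137, had -0.037 and 0.13. Rap1gap2, which encodes a protein that switches Rap1 off, gave 464, 347 and 612 and was lowest in wild-type ATP11A cells. Among alpha chains that can pair with beta 1, Itga6 gave 916, 1043 and 974 and Itgav 689.7, 713 and 664, and by these brightest probe sets both differed by less than 1.3-fold between any 2 arrays. A dim Itgav probe set gave 42.5, 97.1 and 48.6, above the floor in wild-type ATP11A cells only, with a log2 bound of 0.95 over parental cells. Itgb5 was lower in Q84E ATP11A cells, at 329.6, 357 and 207, by 1 probe set of a less specific kind, and its other 3 probe sets were under the floor on all arrays.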
